A study of Mus musculus with 4 samples.

Results

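The receptors that bind the Fc part of IgG, and the 2 receptors that carry antibodies across or through cells, were read in injured mouse abdominal aorta. The 7 genes were taken by name from the array annotation: Fcgr1, Fcgr2b, Fcgr3 and Fcgr4, which encode IgG Fc receptors, Fcer1g, which encodes their shared signalling chain, Fcgrt, which encodes the neonatal Fc receptor, and Pigr, which encodes the polymeric immunoglobulin receptor. They had 10 of the 56605 non-control probes, and all 7 were among the 22498 genes tested of 37074 names on the array. Of the 10 probes, 9 were well above background on all 4 arrays. The tenth, for Pigr, was above background on none.

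RNA was hybridised in 1 colour (Cy3) to 4 arrays, with 2 arrays in each group. The arrays K4 and K5 are labelled SR-A1-/-, and the arrays W2 and W3 are labelled wild type. All came from male mice of 12 weeks, and all aortas were taken 4 weeks after CaPO4, a salt applied to the vessel to injure it, so no uninjured aorta enters the comparison. SR-A1 is the class A scavenger receptor of macrophages, encoded by Msr1. The labels name neither the allele nor the strain and do not say whether an array was 1 animal or a pool, so the p-values cover the spread among these 4 arrays, which may be technical.

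Fc receptors couple antibodies to the cells that respond to them. In mice the activating receptors Fcgr1, Fcgr3 and Fcgr4 bind IgG in immune complexes or on coated particles and signal through the Fcer1g chain, whose tyrosine motif recruits the kinase Syk, while Fcgr2b carries an inhibitory motif in its own tail and dampens the same signals. Macrophages carry both kinds, and the balance between them sets how readily immune complexes activate a cell. The neonatal Fc receptor instead rescues IgG and albumin from breakdown inside endothelial cells and macrophages, and the polymeric immunoglobulin receptor moves IgA and IgM across epithelia.

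The deleted gene was higher, not lower, on the arrays labelled SR-A1-/-. Msr1 was well above background on K4, K5 and W3 and not on W2, with log2 signals of -1.26 and -2.09 on the arrays labelled SR-A1-/- and -5.30 and -2.10 on those labelled wild type, relative to the 75th percentile of each array. K5 and W3 were level, and the difference was 2.03 ± 1.09 (adjusted p = 0.965 in limma). A second Msr1 probe read -1.50 and -1.38 on K4 and K5, against -6.40 and -2.12 on W2 and W3, a difference of 2.82 ± 1.22 in the same direction. Where in Msr1 the deletion lies is not stated, so neither probe is known to test it, and each direction given here rests on the labels. All log2 signals below are on that scale, and each difference is the arrays labelled SR-A1-/- minus those labelled wild type, ± the limma standard error (n = 2 arrays a group). All 4 arrays were on 1 slide with 1 scan time. The 75th percentile of the signal was 245 and 133 on K4 and K5 and 132 and 220 on W2 and W3, so that each group held 1 array of high and 1 of low signal.

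None of the 22498 genes tested passed limma with Benjamini-Hochberg adjustment at an adjusted p of 0.05 (0%; 1416 genes, or 6.29%, had an unadjusted p under 0.05), and so none of the 7 did. Fcgr1, the high-affinity receptor, differed most, and both arrays labelled SR-A1-/- lay above both labelled wild type. The same held for Fcgr2b, Fcer1g and Fcgrt, which makes 4 of 7 genes, and no gene had the opposite order. Over all tested genes 16.1% were higher on both arrays labelled SR-A1-/- and 29.8% were separate in either direction. At an unadjusted p under 0.05, Fcgr1 and Fcgr2b, 2 of 7, were higher, against 3.84% of all genes, and 0 of 7 were lower, against 2.45%. Fcgr1, Fcgr2b and Fcer1g, 3 of 7, were both separate and at least 2-fold higher, against 3.96% of all genes (6.4% in either direction). The median difference of the 7 was 1.0, and 1.13 without Pigr, against -0.0058 over all tested genes. The RNA was of whole tissue, in which more cells of a type and more RNA per cell cannot be told apart.

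**Figure D1:**
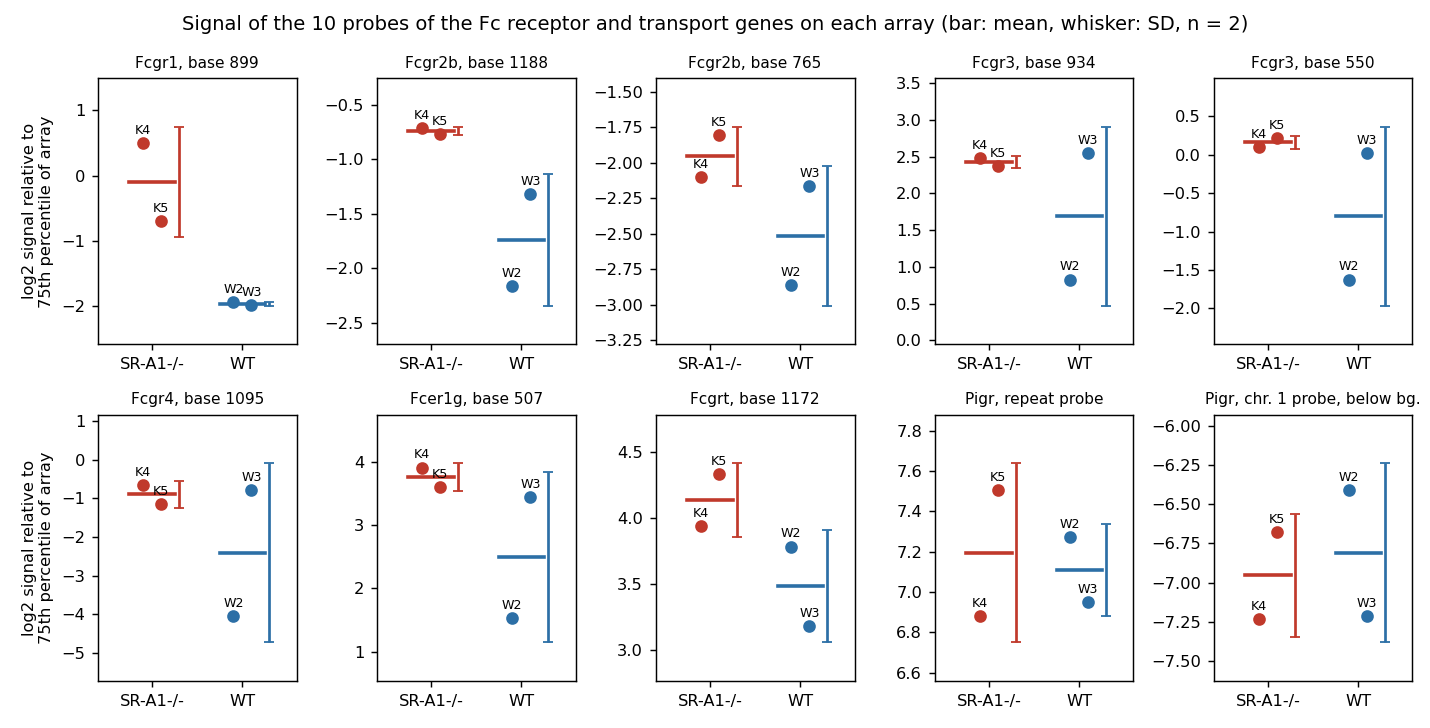
Log2 signal relative to the 75th percentile of the array (vertical axis, scaled separately in each panel) for the 10 probes, by array and labelled group, with the mean and the SD of 2 arrays. For Fcgr3, Fcgr4 and Fcer1g the array W2 sits far below the other 3, while for Fcgr1 W2 and W3 coincide at -1.94 and -1.99 and K4 stands highest.

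Fcgr1 is the receptor that holds single IgG molecules with high affinity, and it is known as a gene induced by interferon-gamma in macrophages. Its probe begins at base 899 of transcript NM_010186 and lies at chr3:96088462-96088521 (mm9, minus strand). Its sequence, shown because this gene differed most, is the following.
Fcgr1 probe: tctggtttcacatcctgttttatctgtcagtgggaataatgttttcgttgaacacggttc
The processed signal, before scaling, was 346 and 82.0 on K4 and K5, against 34.3 and 55.4 on W2 and W3. After scaling, log2 signals were 0.50 and -0.69 on K4 and K5, against -1.94 and -1.99 on W2 and W3. Both values labelled SR-A1-/- were higher, and K4 most. The wild-type arrays differed by 0.044, a gap exceeded by 94.3% of tested genes, and the spread lay between K4 and K5, at 1.19. The difference was 1.87 ± 0.47, or 3.66-fold with a 95% interval of 1.59 to 8.41, with an adjusted p of 0.524 in limma (unadjusted p = 0.0105). It was 2.49 between the high-signal arrays K4 and W3 and 1.25 between the low-signal arrays K5 and W2. With normexp background correction, which compresses dim signals, it was 1.14.

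Fcgr3 and Fcgr4, the other activating receptors, overlapped between groups. By the mm9 positions of their probes, Fcgr2b, Fcgr4, Fcgr3 and Fcer1g follow each other in that order on chromosome 1. Fcgr3 is the low-affinity receptor for several IgG subclasses, found on macrophages, neutrophils and NK cells. At the probe that begins at base 934 of M14215, at chr1:172981647-172981722 (mm9), it read 2.48 and 2.37 on K4 and K5, against 0.83 and 2.55 on W2 and W3. W2 was low and W3 was the highest of the 4. The difference was 0.74 ± 0.61 (95% interval -0.84 to 2.32, adjusted p = 1.0 in limma), and without W2 it was -0.13. The second Fcgr3 probe, at base 550 of NM_010188, read 0.10 and 0.22 on K4 and K5, against -1.62 and 0.023 on W2 and W3. There the arrays labelled SR-A1-/- were just above W3, and the difference was 0.96 ± 0.59. The outer part of mouse Fcgr3 closely resembles that of Fcgr2b, and whether either probe also bound RNA of the other gene was not tested.

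Fcgr4 binds a narrower set of IgG subclasses and in mice is found mainly on macrophages, monocytes and neutrophils. Its log2 signals were -0.65 and -1.15 on K4 and K5, against -4.05 and -0.78 on W2 and W3, at chr1:172959738-172959797 (mm9, base 1095 of NM_144559). The 2 wild-type arrays were 3.27 apart, a gap exceeded by 0.893% of tested genes, and W3 lay between K4 and K5. The difference of 1.51 ± 1.09 (95% interval -1.29 to 4.32, adjusted p = 1.0 in limma) thus rested on W2. Without W2 it was -0.12, and without W3 it was 3.15 with an adjusted p of 0.014, the lone wild-type array being assumed to vary like the other group. With normexp background correction it was 0.53.

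Fcer1g encodes the chain that the activating receptors need for signalling and, in mice, for full surface display. It read 3.91 and 3.60 on K4 and K5, against 1.54 and 3.43 on W2 and W3, at chr1:173159794-173159853 (mm9, base 507 of NM_010185). The groups did not overlap, but W3 was within 0.47 of K4, while K5 stood 2.06 above W2. The difference was 1.26 ± 0.67 (95% interval -0.46 to 2.99, adjusted p = 0.954 in limma). It was 0.32 without W2 and 2.21 without W3, and with median scaling the groups overlapped.

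Fcgr2b, the inhibitory receptor, is expressed by B cells as well as by macrophages and other myeloid cells. Both of its probes were above background on all arrays. The brighter, at base 1188 of NM_001077189 (chr1:172890988-172891047, mm9), read -0.71 and -0.76 on K4 and K5, against -2.17 and -1.31 on W2 and W3. The difference was 1.0 ± 0.38 (95% interval 0.013 to 1.99), an unadjusted p of 0.0481 and an adjusted p of 0.786 in limma. It was 0.58 without W2, 1.43 without W3 and 0.50 with normexp background correction. The unadjusted p in limma was above 0.05 with quantile normalisation (0.060), median scaling (0.086), normexp (0.135) and the deposited values (0.061). In the fit over all probes the standard error of this probe was 0.45, with an unadjusted p of 0.0607. The dimmer probe, at base 765 of NM_010187 (chr1:172895833-172895892, mm9), read -2.10 and -1.81 on K4 and K5, against -2.86 and -2.16 on W2 and W3. Both arrays labelled SR-A1-/- were again above both labelled wild type, by 0.56 ± 0.43 on average in the fit over all probes.

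**Figure D2:**
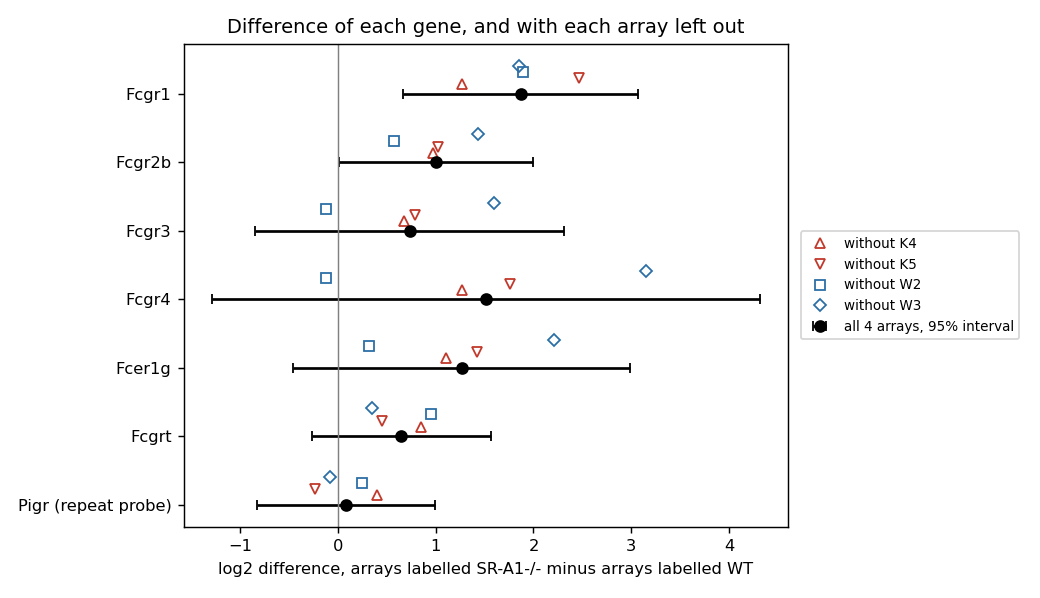
Log2 difference of each gene with its 95% interval from limma (filled circle and bar, 4 arrays), and the difference with 1 array left out (open symbols). The open squares, which leave out W2, sit at -0.13 for Fcgr3 and -0.12 for Fcgr4 and at 1.89 for Fcgr1, and the open diamonds, which leave out W3, reach 3.15 for Fcgr4.

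Fcgrt, the neonatal Fc receptor, had a different order of arrays. Its probe at base 1172 of NM_010189 lies at chr7:52350556-52350615 (mm9, minus strand).
Fcgrt probe: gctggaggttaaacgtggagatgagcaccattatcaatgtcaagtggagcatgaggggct
It read 3.94 and 4.33 on K4 and K5, against 3.78 and 3.18 on W2 and W3. Here W2, the lowest array for Fcgr2b, Fcgr3, Fcgr4 and Fcer1g, was above W3, and K5 was above K4. The difference was 0.65 ± 0.35, or 1.57-fold with a 95% interval of 0.833 to 2.96 (adjusted p = 0.972 in limma). It was 0.75 between K4 and W3 and 0.55 between K5 and W2, and it was 0.45 without K5 and 0.35 without W3. B2m, the light chain that pairs with it, read 6.35 and 6.0 on K4 and K5, against 5.52 and 6.24 on W2 and W3, with overlapping groups and a difference of 0.30 ± 0.37.

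Pigr has 2 probes on this array, and the brighter cannot be assigned to a single RNA. Their sequences are shown because the value that the annotation assigns to Pigr depends on which is used. Capitals mark the longest stretch in which each base repeats the one 3 positions before it.
Pigr probe at base 662: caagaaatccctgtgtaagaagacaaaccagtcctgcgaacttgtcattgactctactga
Pigr probe at base 3452: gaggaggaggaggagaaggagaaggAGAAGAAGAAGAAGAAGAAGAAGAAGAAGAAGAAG
The first maps in the files to chr1:132741106-132741165 (mm9), on the chromosome of Pigr, and was not well above background on any array, with processed signals of 1.63 and 1.30 on K4 and K5 and 1.56 and 1.48 on W2 and W3. The second consists of A and G in all 60 bases, of which the last 35 form the repeat. The files place it at chr19:5932558-5932617 (mm9), away from Pigr, and its annotation also lists transcripts of Zfp811 and Rhox8.

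The repeat probe gave processed signals of 28822 and 24116 on K4 and K5, against 20411 and 27176 on W2 and W3, and 195 of the 56605 probes were brighter, which describes hybridisation to the probe and not a level of the gene. Other probes with a run of GAA units were of like brightness. The array holds 11 other probes with 8 GAA units in a row, and all 11 were well above background on all 4 arrays. Their mean signals lay between 16356 and 32112, against a median of 21.0 over all probes. Over all 14 other probes of A and G only, mean signals ranged more widely, from 1.96 to 32112, and 12 were well above background on all 4 arrays. The difference at the Pigr repeat probe was 0.083 ± 0.35, with overlapping groups (adjusted p = 1.0 in limma). Of the 2 probes, the files place only the one on chromosome 1 on the chromosome of Pigr, and there no fold can be given. Of 6 epithelial markers, Epcam and Cdh1 were also above background on no array. Krt18 and Cldn7 were above it on all 4, Krt8 on K4 and K5, and Krt19 on K4 and W2.

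Whether activating and inhibitory receptors, or receptors and their chain, differed unequally was asked with 7 differences taken within each array. The exact permutation test of 2 against 2 arrays cannot go below 0.333 (two-sided), and every p adjusted over the 7 pairs was 1.0. Fcgr1 minus Fcgr2b was 1.21 and 0.073 on K4 and K5, against 0.22 and -0.67 on W2 and W3, a contrast of 0.87 with overlapping groups. Fcgr3 minus Fcer1g was the one contrast whose groups did not overlap. It was -1.42 and -1.23 on K4 and K5, against -0.71 and -0.88 on W2 and W3, a contrast of -0.53 (exact permutation p = 0.333). The other 5 contrasts lay between -0.27 and 0.61, and all their groups overlapped.

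Of 10 markers of macrophages, the main bearers of these receptors, 0 passed an adjusted p of 0.05 in limma. Their mean log2 signal was 3.38 and 3.08 on K4 and K5, against 1.64 and 2.81 on W2 and W3, and all 10 were above background on every array. Of the 10, 4 had an unadjusted p under 0.05, all higher (3.84% of all genes). Likewise 4 were higher on both arrays labelled SR-A1-/- (16.1% of all genes), and 1, Mertk, was lower on both (13.7% of all genes). Their median difference was 1.11. Summed as multiples of the 75th percentile, they came to 271 and 278 on K4 and K5, against 166 and 353 on W2 and W3. Such a sum is weighted towards the brightest probes, here those of Lyz2 and Itgam. Their differences were 0.37 ± 0.88 and -0.17 ± 0.55, with overlapping groups. Taken relative to the mean of the 10 markers within each array, the groups of Fcgr1, Fcgr2b, Fcer1g and Fcgrt, separate before, overlapped. Those of Fcgr3 and Fcgr4, which had overlapped before, still did. Fcgr2b then stood at -4.09 and -3.84 on K4 and K5, against -3.81 and -4.13 on W2 and W3, a difference of 0.001. For Fcgr1 the values were -2.88 and -3.77, against -3.58 and -4.80, a difference of 0.87, with K5 below W2. For Fcgrt the difference turned to -0.35.

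**Figure D3:**
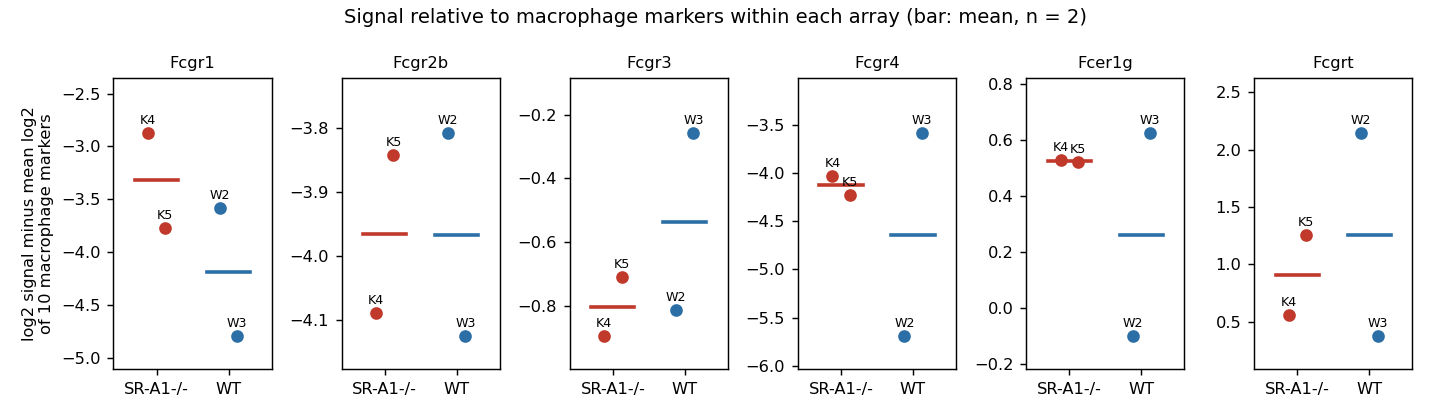
Log2 signal of 6 genes minus the mean log2 signal of 10 macrophage markers on the same array (vertical axis, scaled separately in each panel), by array and labelled group, with the mean of 2 arrays. In each panel the 2 groups overlap, and Fcgr2b has nearly the same mean in both.

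Markers of other cell types that carry these receptors, or that lie in the vessel wall, were read as such sums, with the same weight on the brightest probes. Beside them stand counts of markers higher or lower on both arrays labelled SR-A1-/-, against 16.1% and 13.7% of all genes. At an unadjusted p under 0.05 in limma, 3.84% of all genes were higher and 2.45% lower. The summed level of 6 B cell markers was 2.23 on both K4 and K5, against 2.67 and 2.68 on W2 and W3. Of the 6, 0 were higher and 2 lower on both, and 0 had an unadjusted p under 0.05 (6.29% of all genes). Neutrophil markers summed to 1.56 and 1.99 on K4 and K5, against 0.235 and 4.25 on W2 and W3, with Ngp above background on no array. Of 4 tested, 1, Ly6g, was higher on both, at an unadjusted p under 0.05, and 0 were lower. S100a8, S100a9 and Cxcr2 overlapped between groups, with differences of -0.64, -1.31 and -0.15, and the median of the 4 was -0.39. On W2, Ly6g, S100a8 and Cxcr2 were not above background. Retnlg, above background on W3 alone, was not tested. NK cell markers summed to 0.716 and 0.487, against 0.465 and 0.511, with Ncr1 and Eomes above background on no array. Of 4 tested, 1 was higher on both, at an unadjusted p under 0.05, and 0 were lower. Mast cell markers summed to 7.87 and 3.17, against 4.65 and 3.13. Of 5, 1 was higher on both and 1, Kit, was lower on both, at an unadjusted p under 0.05. The 6 endothelial markers, from a cell type in which Fcgrt acts, summed to 46.7 and 44.8 on K4 and K5, against 38.4 and 19.0 on W2 and W3, and 3 of 6 were higher on both arrays labelled SR-A1-/- (16.1% of all genes) and 1, Kdr, lower on both (13.7%). The part of any of these in the values of the 7 genes was not tested. The smooth muscle markers that define the aortic wall were above background on all arrays and summed to 998 and 1216 on K4 and K5, against 1730 and 1255 on W2 and W3. Of these 6 markers, 0 were higher and 3 lower on both, Myocd at an unadjusted p under 0.05. Skeletal muscle markers, also detected throughout, summed to 99.5 and 177 on K4 and K5, against 790 and 251 on W2 and W3, with mean log2 signals of 3.52 and 4.50 against 5.69 and 4.42. Of the 6, 3 were lower on both, each at an unadjusted p under 0.05 (2.45% of all genes). Myh1 was higher on both, by 3.63, also at an unadjusted p under 0.05 (3.84% of all genes), with an adjusted p of 0.386 in limma. Fibroblast markers summed to 713 and 1112 on K4 and K5, against 1042 and 654 on W2 and W3, and epithelial markers to 2.05 and 1.28, against 1.06 and 0.914. Of 6 fibroblast markers, 1 was higher on both and 0 lower. Of 4 tested epithelial markers, 2, Krt8 and Krt18, were higher on both and 0 lower, Krt8 at an unadjusted p under 0.05. Krt8 was tested only because it was above background on K4 and K5, so its place in these counts rests on undetected wild-type values. Adipocyte markers summed to 592 and 28.7 on K4 and K5, against 383 and 648 on W2 and W3, and 1 of 6 was higher on both and 0 lower.

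Downstream of the activating receptors, 22 signalling genes were tested, and 0 passed an adjusted p of 0.05 in limma. Of these, 11 were higher on both arrays labelled SR-A1-/- and 1, the kinase gene Prkcd, was lower on both, with a median difference of 0.79. At an unadjusted p under 0.05 in limma, 3 were higher and 0 lower. Card9, counted in the 11 and in the 3, was tested only because it was above background on K4 and K5. With only genes above background on all 4 arrays, 10 were higher on both, against 15.1% of all genes. Over all tested genes, 16.1% were higher on both arrays, 13.7% lower on both, and 3.84% higher at an unadjusted p under 0.05, and the counts of the other lists are to be read against the same shares. Syk, the kinase that docks on the Fcer1g chain, read 1.29 and 1.27 on K4 and K5, against -0.053 and 1.09 on W2 and W3. The lipase gene Plcg2 read 1.88 and 1.72 against 0.96 and 0.96, a difference of 0.84 ± 0.28 (adjusted p = 0.699 in limma). Its groups were tight and did not overlap. Pik3cd, a catalytic subunit of phosphoinositide 3-kinase, read 0.40 and 0.12 on K4 and K5, against -1.26 and -0.80 on W2 and W3, a difference of 1.29 ± 0.32 (adjusted p = 0.519 in limma). Card9, an adaptor downstream of Syk, was above background on K4 and K5 and not on W2 or W3. Its mean on K4 and K5 was 1.57-fold above the lowest signal that any probe above background had on W2 and W3. Its own detection limit is not known. The limma difference of 2.85 (adjusted p = 0.196) used measured means of -3.97 on the arrays labelled SR-A1-/- and -6.83 on those labelled wild type, the latter not above background. With median scaling 6 of the 22 were higher on both arrays, against 13.8% of all genes. Without W3, where a single array stands for wild type, 19 of the 22 were, against 30.8% of all genes.

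Among 8 genes of inhibitory signalling, 6 were higher on both arrays labelled SR-A1-/- and 0 lower, against 16.1% and 13.7% of all genes, with a median of 0.20. Of the 6, Inppl1, Csk and Cblb differed by 0.12, 0.15 and 0.24. The lipid phosphatase gene Inpp5d, whose product SHIP1 is recruited by Fcgr2b, read 0.58 and 0.50 on K4 and K5, against -0.74 and -0.33 on W2 and W3. Its difference was 1.08 ± 0.30 (adjusted p = 0.603 in limma). The adaptor gene Dok2 differed by 1.17 ± 0.42, and the tyrosine phosphatase gene Ptpn6, encoding SHP-1, by 0.88 ± 0.46. With median scaling 3 of the 8 were higher on both arrays, against 13.8% of all genes.

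The Fcer1g chain also serves other receptors, several of them C-type lectins that sense microbes. Of 9 listed, 7 were tested, 0 were separated between groups, and their median difference was 0.0088. Clec4n, encoding dectin-2, read 1.11 and 0.76 on K4 and K5, against -0.41 and 1.16 on W2 and W3. Clec4e, encoding Mincle, was above background on K4 and W3 alone, at -4.82 on K4, against -0.50 on W3. Gp6, the collagen receptor gene of platelets, was above background on K5 and W3 alone and differed by -0.18 ± 0.44. The related DAP12 chain, encoded by Tyrobp, read 3.58 and 3.19 on K4 and K5, against 1.46 and 3.66 on W2 and W3, so that W3 was the highest. Of 5 genes of that list 0 were higher on both arrays and 1, Sirpb1a, was lower on both, by -0.20 ± 0.27. Clec5a, not above background on W2, differed by 0.90 ± 1.0.

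Of 12 other Fc and Fc-like receptor genes, 4 were tested, and Fcer1a and Ms4a2, which encode the alpha and beta chains of the high-affinity IgE receptor, and Fcer2a, which encodes CD23, did not pass the filter. Fcrls, which encodes an Fc receptor-like scavenger protein, was 1 of 4 with separate groups. It read 0.55 and 0.37 on K4 and K5, against -0.70 and -1.10 on W2 and W3, a difference of 1.36 ± 0.30 (adjusted p = 0.458 in limma). Trim21, a cytosolic receptor for antibody-coated particles, overlapped at 0.19 ± 0.58, and the IgM receptor gene Fcmr at -0.39 ± 0.37. Of the antibody genes and transport partners, 6 of 14 names were on the array and 5 were tested. Jchain, which links IgA and IgM into the polymers that the polymeric immunoglobulin receptor carries, read 0.62 and 1.15 on K4 and K5, against -1.03 and -1.63 on W2 and W3. It was higher by 2.22 ± 0.37 (adjusted p = 0.284 in limma), and the groups did not overlap. Cd320, also on that list, differed by -0.39 ± 0.33, with both arrays labelled SR-A1-/- lower, and a tie of this gene to antibody transport was not examined.

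**Figure D4:**
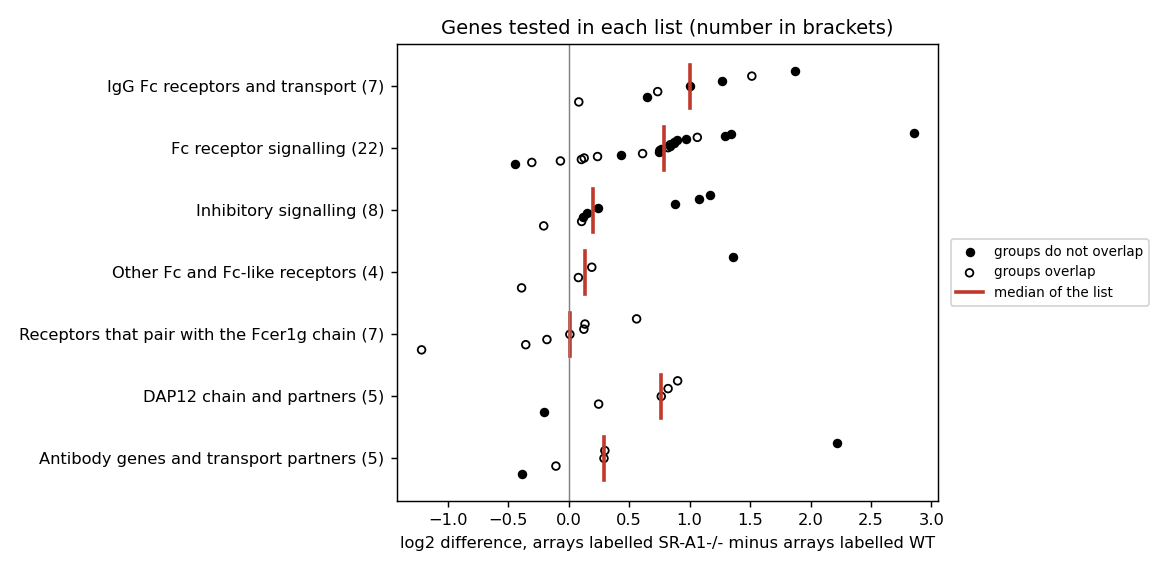
Log2 difference of each tested gene in 7 lists (horizontal axis), with filled points where both arrays of one group lay above both of the other, open points where the groups overlap, and the median of the list as a bar. The medians lie at 1.0 for the Fc receptor and transport genes, 0.79 for Fc receptor signalling and 0.0088 for receptors that share the Fcer1g chain.

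By array pattern, the 7 genes formed no single group. Among pairs of the 7, the root mean square difference between array-centred profiles was lowest for Fcgr3 and Fcer1g, at 0.28 over 4 arrays. Even so, 204 genes were closer to Fcgr3 than Fcer1g was, and the next pair was Fcgrt and the Pigr repeat probe, at 0.31. Fcgr4 was 0.51 from Fcer1g. Fcgr1 was nearest to Fcgr2b, at 0.67, and farther from Fcgr4, at 1.21. Among genes outside the 7, the nearest to Fcer1g were a transcript that the array names only by position, at 0.045, Myo1g, a myosin gene of blood cells, at 0.047, and Oasl1, an interferon-induced gene, at 0.052. Cdca5, a gene of chromosome cohesion, followed at 0.064, and Selplg, the gene of the leukocyte ligand for P-selectin, at 0.069. With 4 arrays such distances describe these samples and nothing further.

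Since Fcgr1 and Fcgr4 are known as interferon-responsive receptors, the 250 bases before each start site in RefSeq (GRCm38.p6, a build other than that of the probes) were searched on both strands for GAGGAA, a core bound by the myeloid factor PU.1, for the GAS element, written TTCNNNGAA, and for an ISRE core, written GAAANNGAAA. The 150 bases before the start of both genes are printed below in gene orientation, with matches in capitals.
Fcgr1, chr3:96293970-96294119, minus strand: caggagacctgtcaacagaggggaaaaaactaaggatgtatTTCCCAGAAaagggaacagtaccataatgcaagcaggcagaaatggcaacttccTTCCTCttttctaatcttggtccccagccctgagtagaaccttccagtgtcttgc
Fcgr4, chr1:171018776-171018925, plus strand: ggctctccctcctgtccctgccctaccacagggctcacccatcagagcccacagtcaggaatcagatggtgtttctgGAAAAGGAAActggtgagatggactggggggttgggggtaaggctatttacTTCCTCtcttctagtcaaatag
Fcgr1 was the only one of the 7 with a GAS match, at -109 to -101 from its start, and Fcgr4 the only one with an ISRE match, at -73 to -64. GAGGAA matched, on the opposite strand, at -55 to -50 in Fcgr1, at -22 to -17 in Fcgr4, and just before the start of Fcgr3. No match overlapped another. Over 32544 promoter sequences of the same length, 23.4% held GAGGAA, 7.04% the GAS element and 2.98% the ISRE core. Each match is a description of the sequence and does not show binding.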

How the data were processed

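RNA of 4 aorta samples was read from 1-colour Agilent scanner files. The intensity used is the processed signal, which per the file headers came from Feature Extraction 12.0.3.1 (the submitters' processing notes name 10.7, and limma with no role), background-subtracted and detrended within the array, with low values replaced by surrogates. The authors also deposited log2 values with nearly equal columns and no stated normalisation, which served as an alternative. Coordinates are mm9, per the file headers.

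Outlier spots (74 to 102 an array) were left out, 0 were saturated, repeated spots were averaged as log2, and the 75th percentile over probes was subtracted. Probes well above background on at least 2 arrays were kept (35107), with the brightest for each gene. The test was limma 3.58.1 (lmFit, eBayes; R 4.3.3), two-sided and checked on simulated data, with p-values adjusted by Benjamini-Hochberg. Single probes were tested in a fit over all probes. Precision is limited by the number of arrays.

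The 7 genes, 6 related lists and marker lists were chosen with earlier results of these data known. Named genes were the 7, Msr1, the 3 genes of each related list with the smallest p, and the 5 nearest to Fcer1g. Prkcd, Syk, Fcer1a, Ms4a2, Fcer2a, Epcam, Cdh1, Ngp, Ncr1, Eomes, Inppl1, Csk, Cblb, Mertk, Kdr and Myh1 were named after their values were seen. So were Krt8, Krt18, Krt19, Cldn7, Lyz2, Itgam, Ly6g, S100a8, S100a9, Cxcr2, Retnlg, Kit and Myocd. Alternatives were other scalings, normexp, filters, probe rules, variance models, the deposited values, signal level as a block and each array left out; reading Pigr only on chromosome 1, and Fcgr2b and Fcgr3 at their dimmer probes, was chosen after seeing the data. Protein motifs were not analysed here. Plots used matplotlib 3.10.9.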

Additional observations from a re-analysis of the deposited data

How the results depend on the processing

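No paired analysis was possible because the numbers in the labels differ between the groups. With all 4 arrays kept, the 7 genes kept their direction in 93 of 93 results and none passed an adjusted p of 0.05, the lowest being 0.307. The filters, the variance models and signal level as a block left each difference unchanged, so those results say nothing of direction. The 93 also hold the results of the Pigr repeat probe. Leaving out 1 array moved the difference of Fcgr1 between 1.27 and 2.47, Fcgr2b between 0.58 and 1.43, Fcer1g between 0.32 and 2.21 and Fcgrt between 0.35 and 0.95. Fcgr3 ranged from -0.13 to 1.6, Fcgr4 from -0.12 to 3.15 and the Pigr repeat probe from -0.23 to 0.40. The number of the 7 genes higher on both arrays labelled SR-A1-/- was 3 to 5 under other settings (11.1% to 17.7% of all genes), and 4 to 6 with an array left out, where 1 group is a single array and 30.8% to 36.2% of all genes were. The number with an unadjusted p under 0.05 was 1 with quantile normalisation, median scaling, cyclic loess, no filter, the mean of probes and the deposited values, 3 with array signal level as a block, and 1 to 5 with an array left out (5 without W3). Over all genes, calls at an adjusted p of 0.05 numbered 8 with quantile normalisation, cyclic loess, no filter and the deposited values, 7 with median scaling, 21 with normexp, 5 with an intensity trend, 2 with array weights, and 0 to 371 with an array left out (260 without W2, 371 without W3); other thresholds gave 1416 (unadjusted p) and 1439 (2-fold, separate groups). With normexp the differences of Fcgr1, Fcgr2b and Fcgr4 were 1.14, 0.50 and 0.53. Of the 22 signalling genes, 6 were higher on both arrays with median scaling and 11 to 19 with an array left out. Among receptor contrasts, Fcgr3 minus Fcgr2b turned to 0.15 with normexp, 0.068 with the mean of probes and ranged from -0.70 to 0.17 with an array left out. Fcgr1 minus Fcer1g turned to -0.035 and Fcgr4 minus Fcer1g to -0.65 with normexp, and with an array left out they ranged from -0.36 to 1.58 and from -0.44 to 0.94. Fcgr4 minus Fcgr2b then ranged from -0.70 to 1.72 and Fcer1g minus Fcgr2b from -0.26 to 0.78. The cause was not tested. The dimmest tested value of the 7 genes was that of Fcgr4 on W2, at a signal of 7.96.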
